A study of Canis lupus familiaris with 24 samples.

Results

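The Fc receptor genes FCGR1A and FCER1G, the scavenger receptor gene CD163, the complement receptor gene C5AR1 and the adhesion receptor gene ADGRE2 were followed in dogs with B-cell lymphoma, sampled while the disease responded to drugs and again once it was resistant. They were chosen by name, with earlier results of these data known, as 5 of the 832 genes whose identifiers on the array matched a gene symbol. The array held 7 probes for them, with 11 spots: 2 probes each for FCER1G and CD163, and 1 probe each for the other 3 genes. All 7 probes passed the filter on dim probes described below. Lymph node cells were taken by fine-needle aspiration from 4 dogs in both phases: a male Shih Tzu labelled 10 years old (dog 1), a male Doberman of 9 years (dog 2), a castrated male French Bulldog of 3 years (dog 3) and a spayed female French Bulldog of 5 years (dog 4). The labels give the same age at both phases and name no drug. Each dog and phase had 3 one-colour arrays, which makes 8 groups and 24 arrays. The sources used here do not say whether the 3 arrays came from separate aspirates, so a p-value for 1 dog rests on differences between its arrays alone, which may be technical.

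FCGR1A encodes CD64, the high-affinity receptor for IgG, and FCER1G encodes the Fc receptor gamma chain, the signalling subunit that carries an activation motif in its tail. The gamma chain pairs with FCGR1A and also with the IgE receptor of mast cells and basophils, and it is found in NK cells too. CD163 is the macrophage scavenger receptor that takes up haemoglobin bound to haptoglobin. C5AR1 is the receptor for C5a, the complement fragment that draws neutrophils and macrophages to sites of inflammation. ADGRE2, also known as EMR2, is an adhesion G protein-coupled receptor of myeloid cells that binds a sugar chain of the extracellular matrix. In lymphoma nodes such genes are read as signs of the non-malignant cells that surround the tumour.

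Levels are given as log2 of the processed spot signal minus the 75th percentile of the same array, so a level of 0 equals that percentile and negative levels lie under it. The 75th percentile of signal ran from 676 to 1118 between arrays, and the share of spots well above background from 71.0% to 80.9%. Arrays of 1 group correlated at 0.984 to 0.996, and the number of arrays limits the precision. Changes are the resistant minus the sensitive level within a dog. A change was called at a limma Benjamini-Hochberg adjusted p under 0.05, taken over 34550 probes, together with a difference of at least 2-fold. The 24 arrays lay on 7 slides. In dog 4 the 3 resistant arrays shared a slide of their own that was scanned on another day, so slide, scan and phase cannot be told apart in that dog. In bulk aspirates, fewer cells of a type and less RNA per cell cannot be told apart either.

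Each of the 5 genes, with all 7 probes, was called lower at the resistant phase in at least 1 dog, as were 17.0% of all probes, and no 2 dogs had the same set of calls. FCGR1A fell in dogs 1 and 3 and rose in dog 2. FCER1G fell in dog 2, CD163 in dog 3, C5AR1 in dogs 1 and 2, and ADGRE2 in dogs 1 and 3. ADGRE2 also passed the call in dog 4, where its signal lay at background. No other change of the 5 genes was called.

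**Figure D1:**
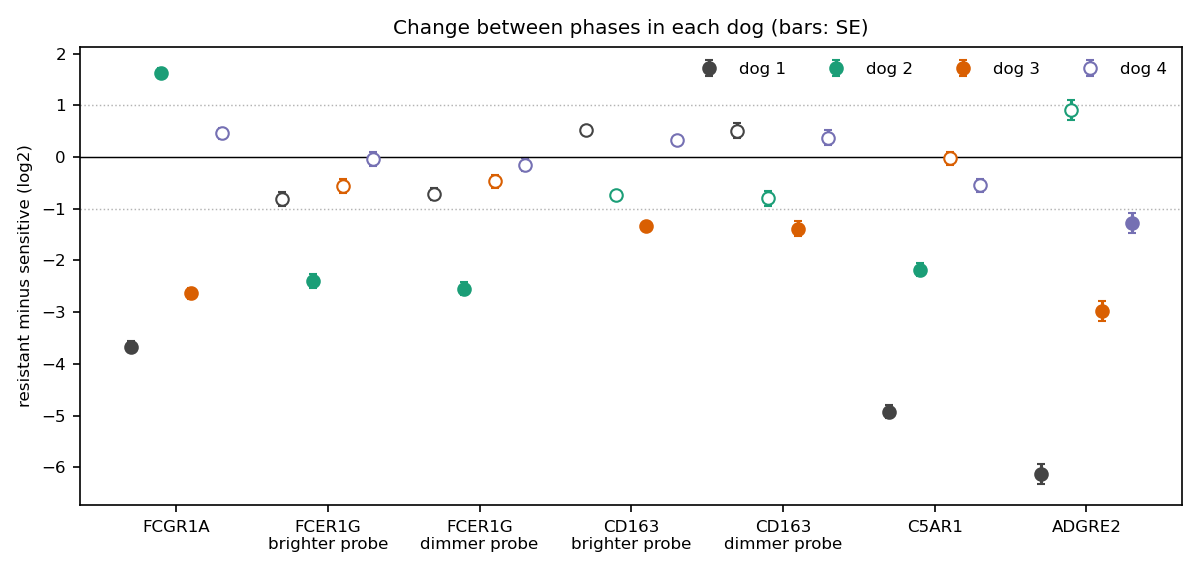
Change between phases for each of the 7 probes (vertical axis, resistant minus sensitive, log2; bars are the SE from limma) in each dog; filled points were called and open points were not, and dotted lines mark 2-fold. FCGR1A reaches -3.67 in dog 1 and 1.62 in dog 2, and the probes of dog 4 lie within 2-fold apart from ADGRE2, which was at background there.

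Counted by probe, 3 of 7 were called lower in dog 1, where 7.75% of all probes were, and none was called higher, against 3.56% of all probes. In dog 2, 3 probes were called lower and 1 higher, beside 10.1% and 3.53% of all probes. In dog 3, 4 were called lower and 0 higher, beside 5.45% and 1.28%. In dog 4, 1 was called lower and 0 higher, beside 1.57% and 3.77%. The 7 probes stand for 5 genes, so the pairs of FCER1G and CD163 count their gene again. The genes were chosen with earlier results of these data known, so no excess over the shares of all probes is read from these counts. The median change of the 7 probes was -0.82, -0.80, -1.33 and -0.04 in dogs 1 to 4, and the median over all probes was -0.05, 0.10, 0.03 and 0.05. FCGR1A was called in opposite directions in different dogs, as were 3.56% of all probes. FCGR1A and ADGRE2 were called lower in both dogs 1 and 3, as were 2.05% of all probes, and C5AR1 in both dogs 1 and 2, as were 3.00%.

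Arrays of the phases did not overlap for 5 probes that were lower and 2 that were higher in dog 1, where 33.6% and 29.8% of all probes showed this. The same counts were 5 and 2 in dog 2 (27.6% and 42.8% of all probes), 6 and 0 in dog 3 (26.5% and 31.4%), and 2 and 2 in dog 4 (25.0% and 32.1%). Separation of the 3 arrays of a phase was thus common on these arrays.

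**Figure D2:**
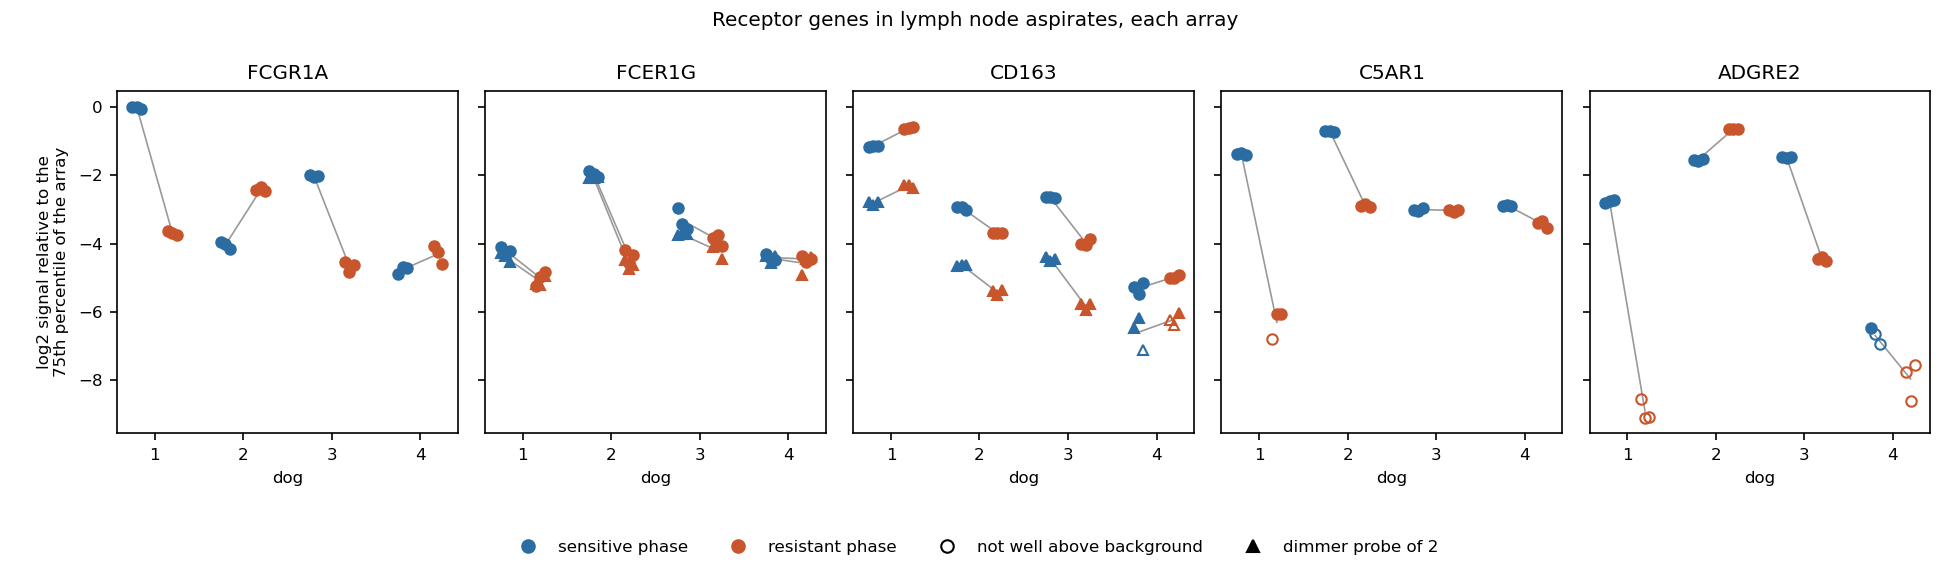
Level of each receptor gene on each of the 24 arrays, as log2 signal relative to the 75th percentile of the array (vertical axis), by dog (horizontal axis); blue points are sensitive-phase and orange points resistant-phase arrays, triangles are the dimmer of 2 probes, open symbols were not well above background, and lines join the phase means of a probe. FCGR1A drops to -3.69 from -0.02 in dog 1 and climbs to -2.41 from -4.04 in dog 2, while CD163 keeps its order of dogs in both phases apart from dogs 2 and 3.

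FCGR1A, the IgG receptor, was brightest in the sensitive phase of dog 1, where the 3 arrays read 0.0037, -0.0045 and -0.07. Its resistant arrays in dog 1 read -3.64, -3.69 and -3.74. This fall of 12.7-fold (change -3.67, SE 0.10, limma adjusted p = 1.34e-15) was larger than the spread between its arrays. In dog 3 the sensitive arrays read -2.0003, -2.06 and -2.03 and the resistant arrays -4.54, -4.83 and -4.63. The gene thus fell there by 6.22-fold (change -2.64, SE 0.10, limma adjusted p = 2.61e-13). Dog 2 went the other way, with sensitive arrays at -3.95, -4.02 and -4.15 and resistant arrays at -2.43, -2.35 and -2.46. That rise was 3.08-fold (change 1.62, SE 0.10, limma adjusted p = 9.78e-11), and the phases did not overlap. In dog 4 the sensitive arrays read -4.88, -4.69 and -4.71 and the resistant arrays -4.07, -4.24 and -4.61. The arrays did not overlap, but the change of 0.46 (SE 0.10, limma adjusted p = 0.00118) was under 2-fold and was not called.

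Ordered by group mean, FCGR1A ran from sensitive dog 1 through sensitive dog 3, resistant dog 2 and resistant dog 1 to sensitive dog 2, with no overlap between neighbours among these 5 groups. The lower end could not be ordered: arrays of sensitive dog 2 overlapped those of resistant dog 4, which overlapped those of resistant dog 3, which overlapped those of sensitive dog 4. The 3 calls held under each of the 18 settings tried for each dog. The change was smaller when normexp background correction of the median signal, with a constant of 50 added, was followed by quantile normalisation (both are meant by normexp in what follows): it was 1.05 in dog 2 and -1.59 in dog 3, against 1.75 and -2.52 under quantile normalisation of the processed signal.

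FCER1G, the gamma chain, had its highest level in the sensitive phase of dog 2. There its brighter probe read -1.88, -1.97 and -2.04, and its dimmer probe -2.09, -2.08 and -2.06. At the resistant phase of dog 2 the brighter probe read -4.20, -4.57 and -4.34, and the dimmer probe -4.48, -4.76 and -4.61. Both probes therefore fell, the brighter by 5.30-fold (change -2.41, SE 0.14, limma adjusted p = 2.26e-11) and the dimmer by 5.83-fold (change -2.54, SE 0.13, limma adjusted p = 3.19e-12). Under normexp these changes were -1.25 and -1.35 and were still called.

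In the other dogs FCER1G changed by less than 2-fold. The brighter probe read -4.10, -4.25 and -4.23 and then -5.23, -4.98 and -4.82 in dog 1, a change of -0.82 (SE 0.14, limma adjusted p = 5.07e-05). With slide as a block this value was -1.04, which passed the call; the dimmer probe changed by -0.72 and did not pass it in any setting tried. In dog 3 the brighter probe read -2.97, -3.42 and -3.57 and then -3.84, -3.76 and -4.07, a change of -0.57. Phases did not overlap in dogs 1 and 3 for either probe. In dog 4 they overlapped for both, with -4.29, -4.44 and -4.49 against -4.36, -4.54 and -4.45 for the brighter probe (change -0.04, SE 0.14, limma adjusted p = 0.830), and the sign of that small value turned when sensitive array 1 or resistant array 2 was left out (0.016 and 0.0022). Resistant dog 1 was the lowest group for both probes, without overlap with the next. For the brighter probe, sensitive dog 1, resistant dog 2 and both phases of dog 4 overlapped along the order of levels.

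CD163, the haemoglobin scavenger receptor, differed more between dogs than between phases. Its brighter probe, printed in 5 spots on each array, read -1.16, -1.15 and -1.14 in sensitive dog 1 and -0.66, -0.61 and -0.59 in resistant dog 1. Those 2 groups were the highest of all 8. At the other end, sensitive dog 4 read -5.27, -5.49 and -5.16 and resistant dog 4 read -5.00, -5.00 and -4.93. Between these ends lay dog 2, with -2.94, -2.92 and -3.01 and then -3.68, -3.70 and -3.69, and dog 3, with -2.62, -2.65 and -2.68 and then -4.00, -4.06 and -3.87. No neighbouring groups overlapped in this order. The repeat spots of this probe on 1 array, 4 or 5 after outlier-flagged spots were left out, had a median SD of 0.083 (range 0.015 to 0.34).

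The only called change of CD163 was the fall in dog 3, of 2.51-fold by the brighter probe (change -1.33, SE 0.06, limma adjusted p = 3.10e-12) and of 2.62-fold by the dimmer probe (change -1.39, SE 0.15, limma adjusted p = 3.34e-07). It passed the 2-fold limit in 17 of 18 settings for the brighter probe and in 14 of 16 for the dimmer probe. Under normexp the values were -0.75 and -0.37, and in the authors' value table the dimmer probe changed by -0.66. In dog 2 the brighter probe changed by -0.74 (SE 0.06, limma adjusted p = 4.79e-09). In dogs 1 and 4 it changed by 0.53 and 0.33, with limma adjusted p-values of 5.81e-07 and 2.23e-04. These 3 differences exceeded the spread between arrays, since the phases did not overlap, but each was under 2-fold. The dimmer probe had the same sign in each dog (0.51, -0.80 and 0.37 in dogs 1, 2 and 4). It was well above background on 2 sensitive arrays and 1 resistant array of dog 4, where its phases overlapped.

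C5AR1, the C5a receptor, was highest in sensitive dog 2, at -0.72, -0.70 and -0.72, and in sensitive dog 1, at -1.38, -1.35 and -1.41. In resistant dog 1 it read -6.78, -6.06 and -6.06, and the first of these arrays was not well above background. The fall in dog 1 was 30.4-fold (change -4.93, SE 0.12, limma adjusted p = 3.04e-16). In dog 2 the resistant arrays read -2.89, -2.85 and -2.93, a fall of 4.52-fold (change -2.18, SE 0.12, limma adjusted p = 2.20e-11). Both calls held under the 17 settings tried, although the value in dog 1 was -2.20 under normexp and -2.91 in the authors' value table.

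In the French Bulldogs no change of C5AR1 was called. Dog 3 read -3.01, -3.04 and -2.96 and then -3.01, -3.07 and -3.02, with overlapping phases and a change of -0.03 (SE 0.12, limma adjusted p = 0.878). Its sign turned under median scaling (0.060) and quantile normalisation (0.046), and it was 0.043 under normexp, which includes quantile normalisation. Dog 4 read -2.89, -2.86 and -2.90 and then -3.40, -3.34 and -3.54. The phases did not overlap there, and the change of -0.55 (SE 0.12, limma adjusted p = 0.00130) was under 2-fold. By level, sensitive dog 4 overlapped resistant dog 2, and the phases of dog 3 overlapped each other. All other neighbours in the order were apart.

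ADGRE2, the adhesion receptor, fell to background in dog 1. In sensitive dog 1 it read -2.80, -2.76 and -2.73. In resistant dog 1 it read -8.53, -9.09 and -9.07, and none of these 3 arrays was well above background. The resistant signal is therefore a bound, and ADGRE2 was at least 15.2-fold lower in resistant dog 1 (group means -2.76 and -8.90, limma adjusted p = 9.44e-15). Such a bound sets the bright mean against, for each dim array, the higher of the probe's own signal and the lowest signal among probes well above background. A probe that is not well above background can read above that lowest signal. The dimmer CD163 probe did so on resistant array 1 of dog 4, at -6.24 against -6.28. Bounds of this kind are therefore approximate. In dog 3 the gene went from -1.48 on each sensitive array to -4.46, -4.38 and -4.52, a fall of 7.84-fold (change -2.97, SE 0.19, limma adjusted p = 4.83e-10). Under normexp the changes were -1.57 in dog 1 and -1.88 in dog 3, and in the authors' value table -2.31 and -2.30. All of these remained called.

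In dog 2 ADGRE2 was higher at the resistant phase, at -0.64, -0.65 and -0.64 against -1.55, -1.58 and -1.52. The phases did not overlap and the change was 0.91 (SE 0.19, limma adjusted p = 5.13e-04), just under 2-fold. Under median scaling of the arrays it was 1.05, which passed the call. In dog 4 the sensitive arrays read -6.48, -6.65 and -6.94 and the resistant arrays -7.74, -8.60 and -7.54. Only the first sensitive array was well above background, so no fold is given for dog 4. The change of -1.27 (limma adjusted p = 3.33e-05) passed the call, but it was -0.07 under normexp, -0.06 in the authors' value table and -0.95 without resistant array 2, and none of these passed. Resistant dog 2 was the highest group, and the lowest 2 groups, resistant dogs 4 and 1, overlapped at background.

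Taken over the 4 dogs as replicates, no phase difference of these genes was called. The test was limma on 8 group means, blocked by dog, and it called 0 of the 7 probes and 0% of all 34550 probes, while 0 of the 7 and 6.14% of all probes had an unadjusted p under 0.05. ADGRE2 had a mean change of -2.37 (SE 1.15, limma adjusted p = 0.839, lower in 3 of 4 dogs). That mean takes the background signal of dogs 1 and 4 at face value, although dog 1 allows only a bound and dog 4 no fold, and it was -0.68 under normexp with quantile normalisation and -0.96 in the authors' value table. C5AR1 had -1.92 (SE 0.85, limma adjusted p = 0.839), which was -1.05 under normexp and -1.30 in the authors' value table. FCER1G had -0.96 (SE 0.41, limma adjusted p = 0.839) by its brighter probe and -0.97 by its dimmer probe. These 3 probes were lower in 4 of 4 dogs, as were 7.36% of all probes, but the values in dog 3 for C5AR1 and in dog 4 for FCER1G were near 0. FCGR1A averaged -1.06 (SE 0.97, limma adjusted p = 0.846), lower in 2 dogs and higher in the other 2. CD163 averaged -0.30 (SE 0.36, limma adjusted p = 0.870) and -0.32 by its 2 probes, and without dog 3 these were 0.041 and 0.029. Single dogs carried much of the other means: without dog 1, FCGR1A averaged -0.19, C5AR1 -0.92 and ADGRE2 -1.11, and without dog 2 the brighter FCER1G probe averaged -0.48. FCGR1A averaged -1.95 without dog 2 and -0.53 without dog 3. With all 24 arrays and the group as a random block in place of group means, C5AR1 (limma adjusted p = 0.0168) and ADGRE2 (limma adjusted p = 0.0361) were called. That fit takes arrays of a group as partly separate, with 1 correlation of 0.82 for all probes. Only 0.661% (C5AR1) and 0.445% (ADGRE2) of the sum of squares lay among arrays of a group, so these p-values are likely too small. The same fit called 2186 probes, and no phase difference across dogs is read from it.

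The changes differed between dogs for all 7 probes by the limma F-test of the dog by phase interaction, which also called 80.5% of all probes. Of 42 comparisons of the change between 2 dogs, 37 were called at an adjusted p under 0.05, against 54.4% over all probes and pairs. ADGRE2 comparisons that involve dog 1 or dog 4 rest on signal at background and are given no size here. For FCGR1A dogs 1 and 2 differed by -5.29 (SE 0.14, limma adjusted p = 1.41e-15). The C5AR1 change differed between dogs 1 and 3 by -4.90 (SE 0.17, limma adjusted p = 6.26e-14), and the brighter CD163 probe differed between the same dogs by 1.86 (SE 0.09, limma adjusted p = 2.68e-12). In resistant dog 1, C5AR1 was well above background on 2 of 3 arrays. For FCER1G the brighter probe differed between dogs 2 and 4 by -2.36 (SE 0.19, limma adjusted p = 7.48e-09). The 5 comparisons not called were FCER1G between dogs 1 and 3 by both probes (-0.25 each, SE 0.19 and 0.18), CD163 between dogs 1 and 4 by both probes (0.20 and 0.14, SE 0.09 and 0.21), and the dimmer FCER1G probe between dogs 3 and 4 (-0.32, SE 0.18).

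**Figure D3:**
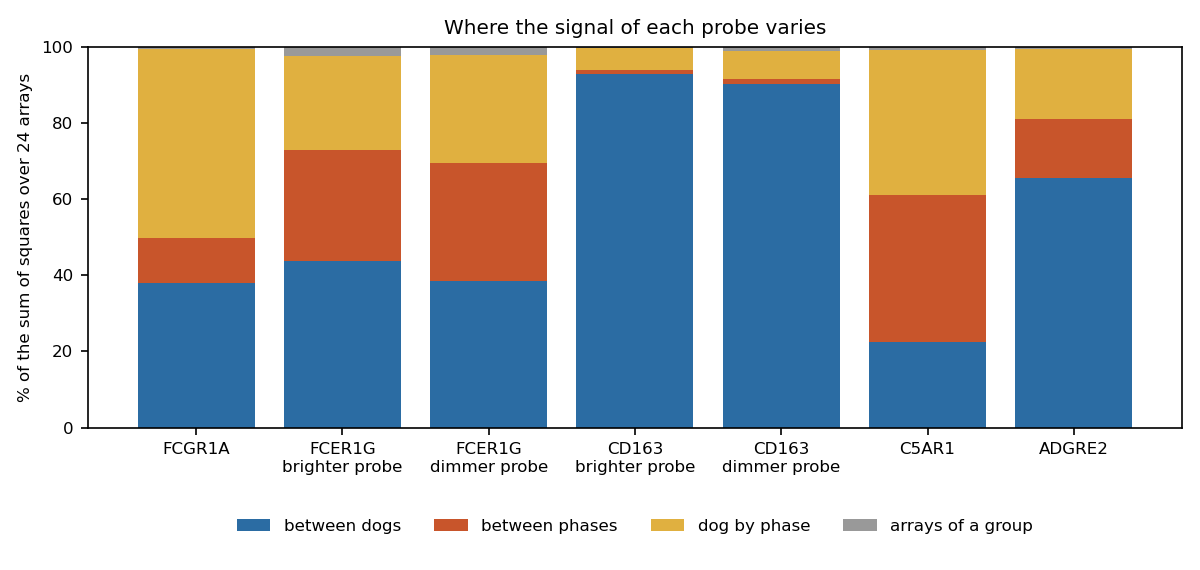
Share of the sum of squares of each probe over 24 arrays (vertical axis, %) that lay between dogs, between phases, in the dog by phase term and among the arrays of a group. For CD163 93.0% and 90.3% lay between dogs, while for FCGR1A 49.7% lay in the dog by phase term. ADGRE2 was well above background on 16 of 24 arrays, so its shares take background signal at face value.

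The genes also differed in where their signal varied, given here as a description. For CD163, 93.0% (brighter probe) and 90.3% (dimmer probe) of the sum of squares over the 24 arrays lay between dogs and 0.918% and 1.23% between phases. FCGR1A had 38.1% between dogs, 11.8% between phases and 49.7% in the dog by phase term. C5AR1, well above background on 23 of 24 arrays, had the largest phase share, 38.6%, with 22.6% between dogs and 38.2% in the dog by phase term. FCER1G had 43.9% and 38.5% between dogs and 29.0% and 30.9% between phases by its 2 probes. ADGRE2 had 65.5% between dogs and 15.6% between phases. It was well above background on 16 of 24 arrays, so these shares and its SD of 3.06 take background signal at face value. Among the arrays of a group lay 0.149% to 2.46% for the 7 probes. Medians over all probes were 58.3% between dogs, 4.22% between phases, 16.9% in the dog by phase term and 5.41% among arrays, at a median SD of 0.42 over the arrays against 0.89 to 3.06 for the 7 probes.

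Over the 8 group means, the 2 probes of FCER1G correlated at 0.99 and so did those of CD163, which are readings of the same genes. Between genes the highest values were 0.72 for FCER1G with C5AR1, 0.70 for C5AR1 with ADGRE2, 0.62 for FCER1G with ADGRE2 and 0.61 for FCGR1A with CD163, each by the brighter probe. FCGR1A and its partner chain FCER1G correlated at -0.03, and CD163 with C5AR1 at -0.22. These are descriptions over 8 points from 4 dogs that share arrays and scaling. The values for ADGRE2 rest partly on signal at background, in resistant dog 1 and both phases of dog 4.

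Of the 713 other measured gene symbols, the 3 most like FCGR1A over the 8 group means were MMP9, a neutrophil and macrophage protease (r = 0.91), the adenosine receptor ADORA2B (r = 0.83) and ADGRE3, a relative of ADGRE2 (r = 0.80). For FCER1G they were APP, the amyloid precursor protein (r = 0.99), the NAD-consuming surface enzyme CD38 (r = 0.99) and the transcription factor MITF (r = 0.98). CD163 was most like the membrane skeleton protein EPB41 (r = 0.94), the adenosine receptor ADORA3 (r = 0.92) and COX17, a copper chaperone of mitochondria (r = 0.89). C5AR1 was most like the lysosomal enzyme SGSH (r = 0.92), the mast cell chymase CMA1 (r = 0.90) and the membrane-binding protein ANXA2 (r = 0.90). ADGRE2 was most like TIMP1, an inhibitor of matrix proteases (r = 0.93), MACO1 (r = 0.93) and the lymphocyte growth factor IL7 (r = 0.90). The 95th percentile of r over all probes was 0.54 for FCGR1A and 0.75 for FCER1G, so high values come easily with 8 points.

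The array named few other genes of these pathways, and counts of them stand against the shares of all probes called in each dog given above. Of 22 other Fc receptors and their signalling partners, 2 were measured, both subunits of the IgE receptor that uses the FCER1G chain: FCER1A, the alpha chain that binds IgE, and MS4A2, the beta chain. Both were called lower in dogs 1, 2 and 3, and neither in dog 4. FCER1A was at least 6.45-fold lower in resistant dog 1 (means -4.00 and -7.82), where 0 of 3 resistant arrays were well above background. It fell by 2.85-fold in dog 2 (change -1.51) and by 8.66-fold in dog 3 (change -3.11). MS4A2 was at least 3.97-fold lower in dog 1 (means -4.70 and -7.29) and at least 1.58-fold lower in dog 2 (means -5.72 and -6.90), with no resistant array well above background in either. In dog 3 MS4A2 went from -3.33 to -6.47, with 1 of 3 resistant arrays well above background. FCER1G itself was called in dog 2, and its brighter probe in dog 1 only with slide as a block or within 1 slide.

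Of 24 other scavenger receptors and haem-handling genes, 2 were measured, the ferritin light chain FTL and the transferrin receptor TFRC, and 0 were called in any dog. FTL changed by -0.07, -0.06, -0.22 and 0.14 in dogs 1 to 4. Of 36 other complement genes only the regulator CLU, clusterin, was measured. CLU was called lower in dogs 1 and 2, as C5AR1 was, with changes of -1.31 and -1.66 (SE 0.03 each, limma adjusted p = 5.92e-16 and 7.31e-18), and it changed by -0.63 and -0.12 in dogs 3 and 4.

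Of 24 other adhesion and chemoattractant receptors of leukocytes, 7 were measured. Called lower and higher were 1 and 1 in dog 1, 2 and 1 in dog 2, 1 and 2 in dog 3, and 0 and 0 in dog 4. The largest change was that of the eotaxin receptor CCR3 in dog 2, from -3.92 to 1.29 (change 5.21, limma adjusted p = 1.39e-13). CCR3 was also called higher in dog 3 (change 1.29). The leukocyte adhesion receptor ADGRE5 fell in dog 2 (change -2.33) and the neutrophil chemokine receptor CXCR2 fell in dog 1 (change -2.17). ADGRE3, which lies near ADGRE2 in the dog genome annotation and resembles it, was called lower in dog 3 (change -1.42) and not in dog 1 (change -0.33), where ADGRE2 fell to background. Cross-hybridisation between such relatives was not tested, because probe sequences were not used here.

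The labelled link of these receptors to macrophages could not be checked: of 20 macrophage and monocyte markers other than these genes, only CD86 was measured, and B cells express it as well. CD86 was called lower in dog 3 (change -1.11) and changed by -0.51, -0.48 and -0.17 in dogs 1, 2 and 4. Markers of other cells moved beside the receptors. Their counts stand against the shares of all probes called lower (7.75%, 10.1%, 5.45% and 1.57% in dogs 1 to 4) and higher (3.56%, 3.53%, 1.28% and 3.77%). Of 16 neutrophil markers 4 were measured. Their mean level in dogs 1 to 4 was -2.60, -5.15, -2.11 and -4.11 at the sensitive phase and -4.64, -3.11, -5.22 and -4.06 at the resistant phase. The mean moved in the direction of the FCGR1A calls in dogs 1 to 3. It includes MMP9, which had already come up among the 3 genes most like FCGR1A (r = 0.91). The match of MMP9 is thus no separate observation. The antimicrobial peptide CAMP changed by -5.46, 4.49, -5.41 and -0.38 in dogs 1 to 4 and the protease MMP9 by -1.97, 2.52, -4.91 and -0.22. The neutrophil elastase gene ELANE changed by 1.44, 0.07, -2.11 and 0.44, called higher in dog 1 and lower in dog 3, with 1 of 3 sensitive arrays of dog 1 well above background. CXCR2 changed by -2.17, 1.05, 0.0012 and 0.33, and was called in dog 1 alone. Counts called lower and higher among the 4 were 3 and 1, 0 and 2, 3 and 0, and 0 and 0. The part of neutrophils in the FCGR1A result was not tested.

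**Figure D4:**
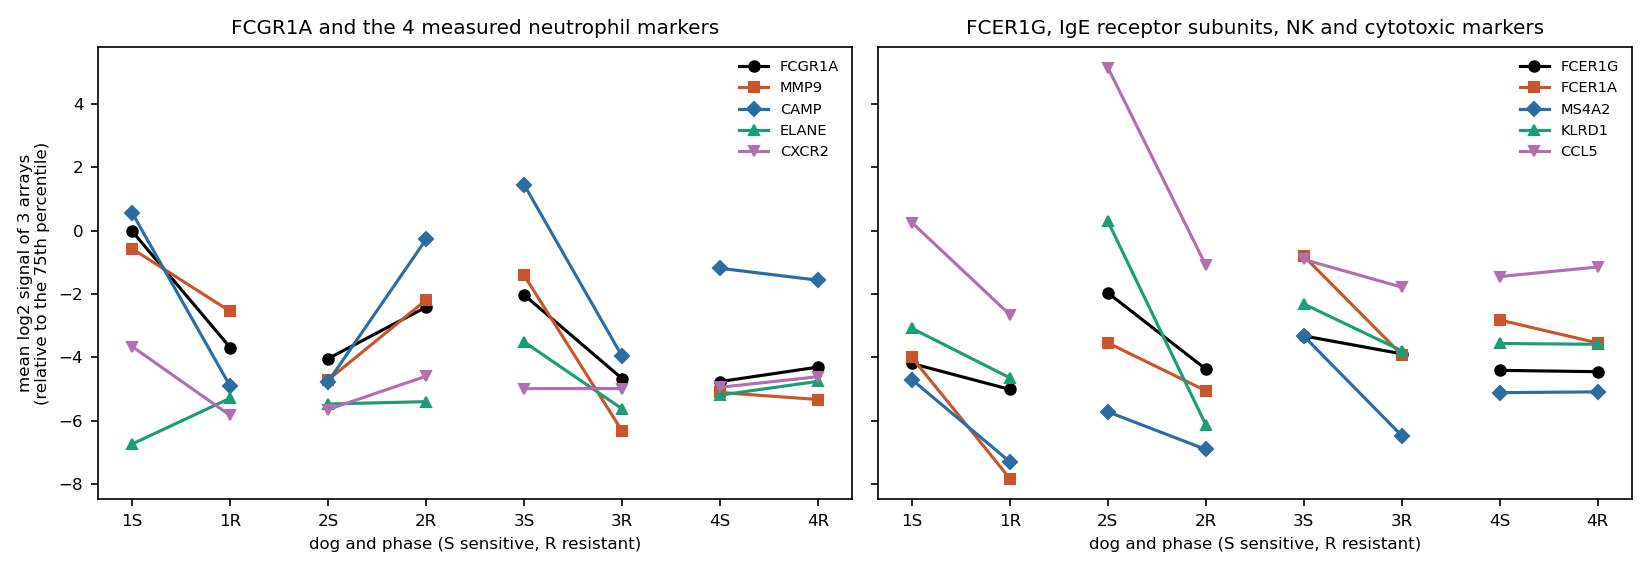
Group mean level of 3 arrays (vertical axis, log2 relative to the 75th percentile of the array) at the sensitive (S) and resistant (R) phase of dogs 1 to 4, for FCGR1A with the 4 measured neutrophil markers (left) and for FCER1G (brighter probe) with 2 subunits of the IgE receptor and the 2 measured NK and cytotoxic markers (right). Directions can be compared between genes and levels cannot. FCGR1A, MMP9 and CAMP are all lower in resistant dogs 1 and 3 and higher in resistant dog 2. MMP9 had already come up among the genes most like FCGR1A, so its match is no separate observation. ELANE is higher in resistant dog 1 (1.44) and CXCR2 is level in dog 3. FCER1G, KLRD1 and CCL5 have their largest fall in dog 2, while FCER1A falls less in dog 2 (-1.51) than in dog 3 (-3.11). MS4A2 falls to background in dogs 1 and 2, so its falls there cannot be ranked.

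Beside FCER1G, both measured NK and cytotoxic cell markers, of 12 listed, were called lower in dogs 1 and 2, 1 in dog 3 and 0 in dog 4. Their median change was -2.23, -6.33, -1.17 and 0.14 in dogs 1 to 4, with the NK receptor KLRD1 going from 0.29 to -6.12 in dog 2. Of 5 measured T cell markers (15 listed), 3, 5, 3 and 0 were called lower in dogs 1 to 4. The dog 1 calls include ICOS, which was well above background on 0 of 3 arrays in either phase. They also include CD28, with 1 of 3 resistant arrays well above background. Over all probes 7.75%, 10.1%, 5.45% and 1.57% were called lower and 3.56%, 3.53%, 1.28% and 3.77% higher. Of 5 measured markers of mast cells, basophils and eosinophils (11 listed), 3, 4, 3 and 0 were called lower and 0, 1, 1 and 0 higher. Chymase, CMA1, changed by -3.02, -3.07, -0.59 and -0.94, and was called lower in dogs 1 and 2, where C5AR1 was. CMA1 had already come up among the 3 genes most like C5AR1 (r = 0.90), so this match is no separate observation. The rest of that list did otherwise. FCER1A and MS4A2 were called lower in dogs 1, 2 and 3, and KIT in dogs 2 and 3 (changes -1.23 and -1.52). CCR3 was called higher in dogs 2 and 3 (changes 5.21 and 1.29). The part of NK, T or mast cells in the FCER1G and C5AR1 results was not tested.

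The B cell markers CD40 and MS4A1, 2 of 15 listed, were called in no dog, and their mean level lay between 4.57 and 5.04 in the 8 groups. Stroma markers, 8 measured of 13, were called lower 3, 6, 6 and 2 times in dogs 1 to 4 and higher 1 time, in dog 1. Over all probes 7.75%, 10.1%, 5.45% and 1.57% were called lower in dogs 1 to 4, and 3.56% higher in dog 1. Of 3 measured endothelial markers (8 listed), 1 was called lower in each of dogs 1 to 3, the receptor KDR, and none in dog 4. Of 2 dendritic cell markers (14 listed), 1 was called lower in dog 1 and 1 lower and 1 higher in dog 3. The 1 platelet marker (8 listed), ITGA2B, was called in no dog, and 0 of 6 plasma cell markers were measured. Their part in the receptor results was not tested.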

How the data were processed

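Lymph node RNA was labelled with Cy3 and hybridised to one-colour Agilent arrays, per the labels' protocols, and groups and replicate numbers come from the sample titles. The authors deposited spot intensity written by Agilent's Feature Extraction, of which the submitters' processing notes name version 10.7.3.1. Background had been subtracted from the processed signal and arrays had not been normalised to each other, per the file headers. The authors' value table held raw median intensities identical to those in the scanner files on all 24 arrays (largest difference 0). It is thus linear, uncentred and unnormalised, with nothing of its scale, centring or direction unknown. Its column medians by array for dog 1 were 109, 106, 103 (sensitive), 112, 103.5, 100.25 (resistant). For dog 2 they were 131.75, 130.5, 141 (sensitive), 113, 114, 115.5 (resistant). For dog 3 they were 110, 106, 102 (sensitive), 100, 113, 109 (resistant). For dog 4 they were 99, 104, 107 (sensitive), 103, 100, 97 (resistant). No source used here names a genome build.

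Each array's 75th percentile was subtracted from log2 processed signals. The 1417 control spots of 45220 and outlier-flagged spots were left out, which removed some repeat spots of CD163 on 3 arrays; 0 spots were saturated, and repeat spots were averaged. A probe needed 3 of 3 arrays well above background in some group to be kept, which left 34550 of 43603. Names come from a RefSeq gene table (assembly UU_Cfam_GSD_1.0), used for names and neighbours alone, which matched 832 of 35908 identifiers; 1078 kept probes (3.12%) carried a symbol.

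All tests were two-sided and used limma (3.58.1, R 4.3.3) over all kept probes: within each dog on 24 arrays in 8 groups, across dogs on 8 group means blocked by dog, and for the interaction on 24 arrays. All probes of the 5 genes are described. Likeness used the brightest probe and the 3 highest correlations. From each list the 3 called genes of largest change were eligible to be named. FTL, TFRC, CMA1, KIT, ELANE, ADGRE3, CD40, MS4A1 and ITGA2B were named beyond that rule, after their values were seen. The genes and lists were chosen with earlier results of these data known. The lists were 4 pathway lists (Fc partners, scavenger and haem genes, complement, adhesion and chemoattractant receptors) and 11 lists of cell type markers. Alternatives covered scaling, normexp background correction (on the median signal in place of the planned mean, followed by quantile normalisation), the value table, probe filters, slide, replicate number and left-out arrays or dogs.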

Additional observations from a re-analysis of the deposited data

Results flagged for a closer look

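The change between phases differed among the 4 dogs for each of the 7 receptor probes, by limma's F-test of the dog by phase interaction with Benjamini-Hochberg adjustment over all probes. For FCGR1A the adjusted p was 8.33e-16, with changes of -3.67, 1.62, -2.64 and 0.46 in dogs 1 to 4. For ADGRE2 it was 8.09e-13, with -6.13, 0.91, -2.97 and -1.27, where the resistant signal of dogs 1 and 4 was not above background, so that those 2 values are no measured sizes. For C5AR1 it was 7.71e-14, with -4.93, -2.18, -0.03 and -0.55. The FCER1G probes gave 2.02e-08 (brighter) and 3.14e-09 (dimmer), with -0.82, -2.41, -0.57 and -0.04 by the brighter probe. The CD163 probes gave 1.62e-12 (brighter) and 2.56e-07 (dimmer), with 0.53, -0.74, -1.33 and 0.33 by the brighter probe. The same test called 80.5% of all probes. Its error comes from differences among 3 arrays within a group, so differences between separate aspirates of a dog, if the arrays came from 1 aspirate, are not part of it. With slide as a block, which could be fitted for dogs 1 to 3 only, 7 of 7 probes were called (highest adjusted p 0.000174). That fit also called 20795 of the 34550 kept probes, so such a call was common there too. Single outlying arrays were not tested for, since each group has 3 arrays.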

How the results depend on the processing

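Of the called single-probe changes, 200 of the values under alternative settings kept direction and call and 6 lost the call. Of the changes not called, 335 kept direction and stayed uncalled, 5 passed the call and 10 changed sign. The calls of FCGR1A in dogs 1 to 3, FCER1G in dog 2, C5AR1 in dogs 1 and 2 and ADGRE2 in dogs 1 and 3 held under every setting tried in which the probe was kept. Over all probes 3906, 4698, 2327 and 1845 were called in dogs 1 to 4. These counts were 998, 1879, 707 and 222 under normexp with quantile normalisation, 1518, 2623, 1048 and 298 in the authors' value table, and 1795, 2591, 1034 and 535 among probes above background on all 24 arrays; with no filter dog 4 had 3021. Receptor probes called were then 2 (dog 3) and 0 (dog 4) under normexp, and 0 (dog 4) in the value table. They were 1 (dog 1), 2 (dog 3) and 0 (dog 4) among probes above background on all arrays. That filter keeps only 4 of the 7, with 4 of unequal change and 21 called comparisons between 2 dogs. Leaving out 1 array gave 3299 to 4466, 4263 to 4969, 2154 to 2853 and 1523 to 2255 called probes in dogs 1 to 4, with 3, 4 and 4 receptor probes in dogs 1 to 3 and 0 to 1 in dog 4 (0 without resistant array 2). With 24 arrays and the group as a random block, 2186 probes and 2 receptor probes were called across dogs, against 0. That fit takes arrays of a group as partly separate, so no phase difference across dogs is read from it.

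Calls lost were CD163 in dog 3 under normexp (-0.75 and -0.37) and by its dimmer probe in the value table (-0.66), and ADGRE2 in dog 4 under normexp (-0.07), in the value table (-0.06) and without resistant array 2 (-0.95). Calls gained were ADGRE2 in dog 2 under median scaling (1.05) and the brighter FCER1G probe in dog 1 with slide as a block or within 1 slide (-1.04). Signs turned for C5AR1 in dog 3 (0.060 and 0.046 under median scaling and quantile normalisation, and 0.043 under normexp, which includes the latter), the dimmer CD163 probe in dog 4 (-0.0032 under quantile normalisation), the brighter FCER1G probe in dog 4 (0.034 in the value table, -0.087 to 0.016 over left-out arrays, above 0 without sensitive array 1 or resistant array 2), the dimmer FCER1G probe in dog 4 (-0.25 to 0.012, above 0 without resistant array 1) and the CD163 mean over left-out dogs (-0.58 to 0.041 and -0.60 to 0.029, above 0 without dog 3). The cause was not tested. The median change over all probes was 0.13 in dog 1 and 0.25 in dog 2 with median scaling, against -0.05 and 0.10. The share of calls that were higher, 31.5%, 26.0% and 70.7% in dogs 1, 2 and 4, was 45.7%, 37.4% and 63.9% under median scaling, 45.4%, 33.2% and 48.0% under quantile normalisation, and 40.1% in dog 4 under normexp. In the value table it was 50% in dog 4 and 8.87% in dog 3, against 19.0% in dog 3. Deviations of same-numbered arrays correlated at -0.12 to 0.09, so the numbers share only a name. With the replicate block, 3871, 4653, 2312 and 1803 probes were called in dogs 1 to 4. That block also gave 38 called of the 42 comparisons of a receptor probe's change between 2 dogs. A slide block could not be fitted for dog 4. Dim signal limits ADGRE2 in dogs 1 and 4, the dimmer CD163 probe in dog 4 and C5AR1 on resistant array 1 of dog 1.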
